A study of Mus musculus with 51 samples.

Results

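The serpins are a family of genes for proteins that share one fold, most of which trap a protease by offering it a loop as bait. They were taken as every gene of the count table whose name is Serpin, a clade letter from a to i and a number, which gave 64 of the 55401 genes listed. Of the 64, 62 are annotated as protein coding, Serpinb10 as a polymorphic pseudogene and Serpina3h as a transcribed pseudogene. Counts came from 30 mRNA-seq libraries of mice of mixed 129Sv and C57Bl/6J background, in 10 groups of 3. At postnatal day 28 (P28) whole gonads were Dmrt1+/+, Dmrt1+/-, Dmrt1-/- or R111G/+, and at P3 they were Dmrt1+/-, Dmrt1-/-, R111G/+ or R111G/-. At P7 the libraries came from cells enriched for Sertoli cells, all with CAG-Stopflox-tdTomato and Dhh-Cre, and Dmrt1 f/f (mutant) or f/+ (control). Dissected tubules, from 2 mice in each tube, were dissociated and cells that bound Thy1 or c-Kit beads were removed, so other unbound cells can remain. The Cre is driven by Dhh, which Sertoli cells express, and the mutants are not null animals. The P7 controls are titled +/+ but their genotype is given as f/+ with Dhh-Cre, so they are taken as cells that keep 1 intact allele. Dmrt1 encodes a transcription factor that keeps Sertoli cells male, and R111G is a point mutation in its DNA-binding domain, carried by a mouse line made by genome editing. Nothing in the labels says that the 3 libraries of a group are separate animals, so the p-values measure the spread between libraries, which may be technical. Pairs of libraries within a group differed by a chi-square per gene of 6.98 to 52.4, more than counting error alone would give. Whether that spread lies between animals or between preparations was not tested.

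A serpin usually works once: the protease cuts the bait loop, the serpin changes shape, and both are held together and cleared. Secreted serpins restrain clotting, plasmin and complement, and carry hormones, while clade B serpins stay inside cells, many of them immune cells, and block granule proteases and cathepsins. Some members have lost the inhibitory role, among them Serpinh1 (HSP47), a chaperone of newly made collagen in the endoplasmic reticulum, and Serpinf1 (PEDF), a secreted factor that restrains vessel growth. In the testis, serpins and the plasminogen activators they block are known from the turnover of seminiferous tubules and from sperm maturation, and male mice that lack Serpina5 (protein C inhibitor) are infertile.

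Library totals ran from 5043838 to 12792811 assigned reads, with a median of 8776697. Dmrt1 itself was at 0.171 to 0.463 CPM (assigned reads scaled to library size by TMM, on 1 scale for all libraries) in P28 Dmrt1-/- against 31.2 to 62.3 in Dmrt1+/-, at 2.12 to 3.32 in P3 Dmrt1-/- against 53.3 to 81.7, and at 21.2 to 36.8 in mutant against 168 to 259 in control Sertoli cells, so each Dmrt1-/- and mutant library was below all its controls. Its levels do not separate Dmrt1+/+ from Dmrt1+/- at P28, or R111G/- from Dmrt1+/- at P3. The make-up of the P28 gonads differed widely. The summed level of 18 spermatid markers was 22681 to 25083 CPM in Dmrt1+/+, 6011 to 24437 in Dmrt1+/-, 85.0 to 88.8 in Dmrt1-/- and 808 to 1253 in R111G/+, the lowest Dmrt1+/- value being that of replicate 3, which stood apart from the other 2. Over the same groups, 13 endothelial markers summed to 79.0 to 96.1, 94.6 to 123, 705 to 804 and 106 to 184 CPM, 12 stromal markers to 705 to 1074, 995 to 1494, 5446 to 6351 and 2119 to 3720, and 15 macrophage markers to 586 to 811, 614 to 958, 985 to 1280 and 987 to 2444. In that order, 24 granulosa markers summed to 240 to 297, 326 to 390, 3756 to 4624 and 552 to 671 CPM. Leydig markers (12) summed to 1317 to 3081, 2016 to 3496, 12181 to 13902 and 4174 to 8398 CPM. Sertoli markers (29) summed to 2068 to 2226, 2820 to 4256, 6626 to 7135 and 3844 to 4560.5 CPM. The part of these cell types in the serpin values was not tested. In bulk gonads, a larger share of cells of a type and more RNA per cell cannot be told apart, which applies to every P28 and P3 value given here. The share of all genes whose P28 groups do not overlap was not counted. Separations between P28 groups are therefore given as description only.

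The family was unevenly used. No read was assigned to 7 members in any library (Serpinb13, Serpinb3a, Serpinb3c, Serpinb3d, Serpina3j, Serpinb9e and Serpinb9f), 27 of the 64 reached a group mean of 1 CPM and 14 reached 10 CPM. Those 14 are followed library by library, 13 more lay between 1 and 10 CPM, and 37 stayed under 1 CPM in every group. The summed level of all 64 was lowest in P28 Dmrt1+/+ (462 to 676 CPM) and Dmrt1+/- (538 to 871), and higher in P28 Dmrt1-/- (1618 to 1999), in R111G/+ (1066 to 1522) and at P3 (1627 to 2539 over the 4 genotypes). Per kilobase of exon, the scale on which genes can be set against each other, Serpina5 was the highest of the 14 in P28 Dmrt1+/- (110.6 CPM per kb) and in control Sertoli cells (124), and Serpinh1 was the highest in P28 Dmrt1-/- (314) and P3 Dmrt1+/- (348).

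**Figure D1:**
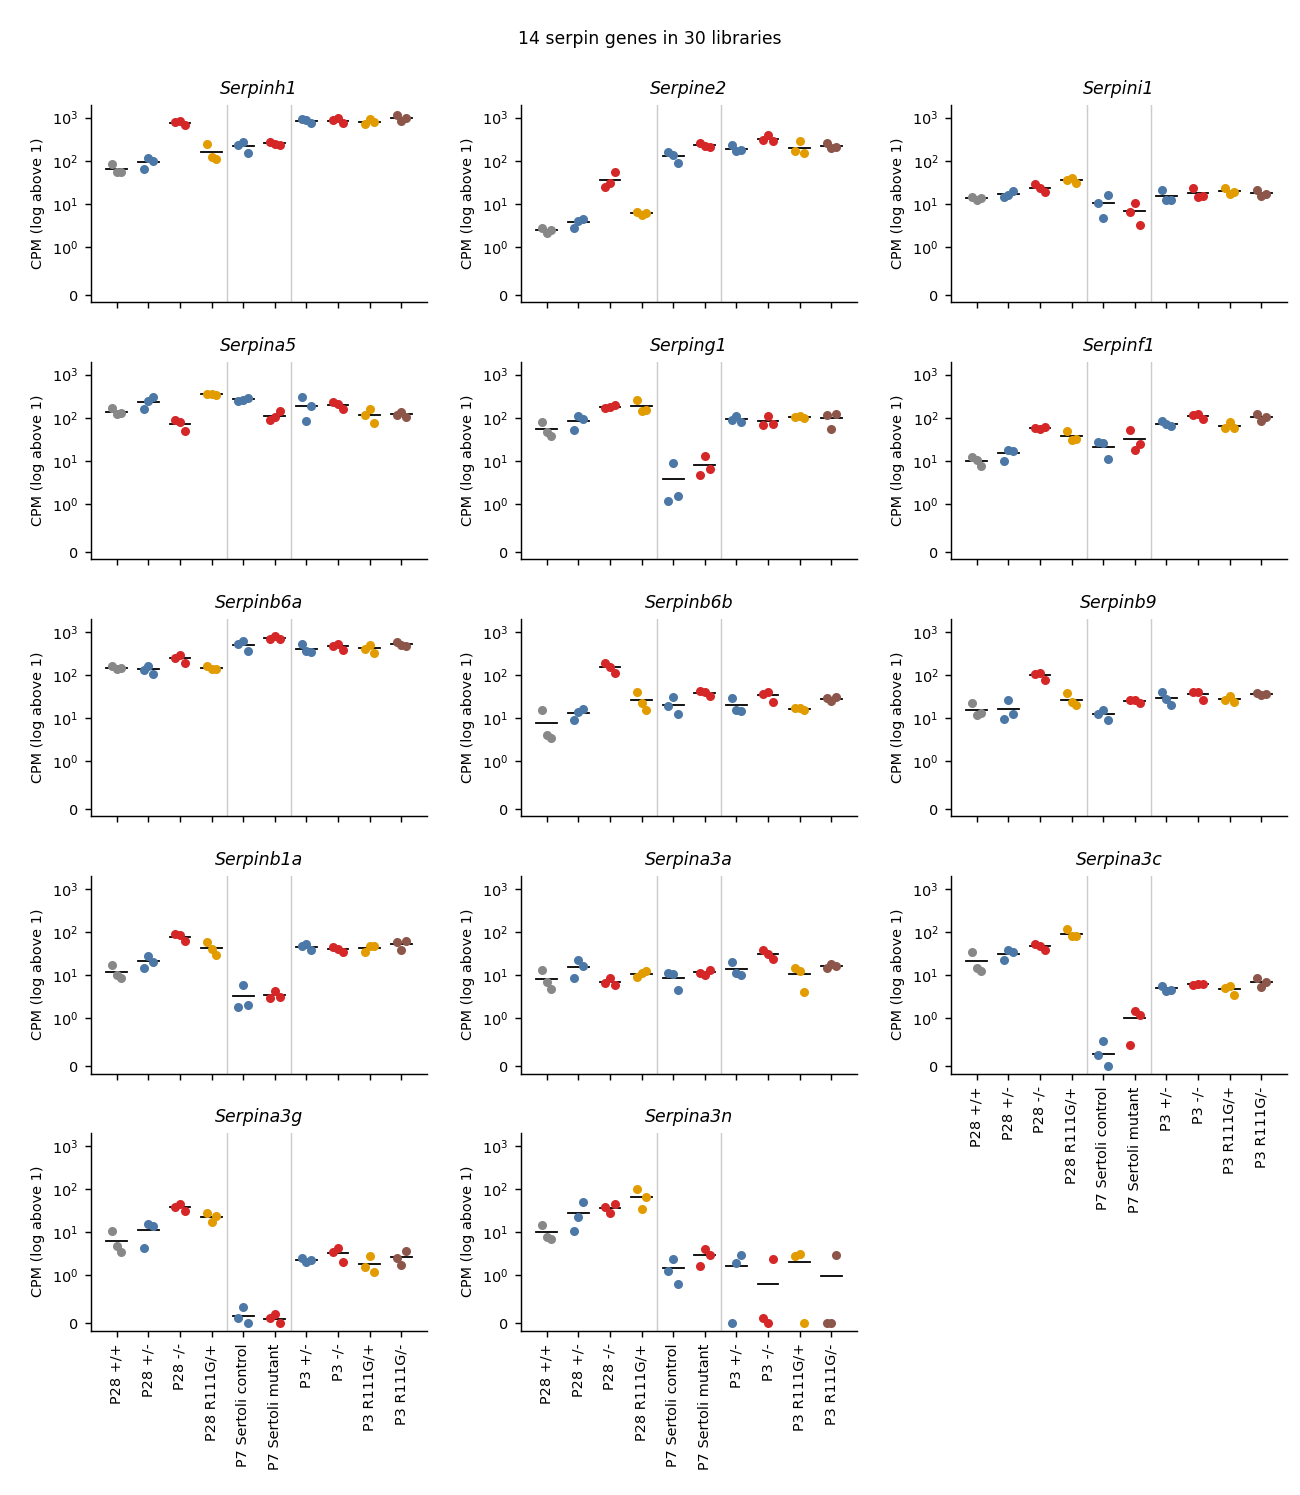
Level of the 14 serpin genes that reached 10 CPM, in CPM on an axis that is logarithmic above 1 and linear below, for each of the 30 libraries (points) with the group mean (bar), by age and genotype. Serpinh1 and Serpine2 were low in P28 Dmrt1+/+ and Dmrt1+/- and high at P3, and Serpina5 was lower in P28 Dmrt1-/- (89.9, 79.6 and 50.1 CPM) than in every other P28 library.

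The share of serpins called at P28 with loss of Dmrt1 was near that of all genes when both directions were pooled. By direction, more of the members tested rose than fell, while more of all genes fell than rose. Of 23 that passed the filter on low counts, 9 rose and 6 fell in Dmrt1-/- against Dmrt1+/- when called at more than a 2-fold change with an adjusted p under 0.05, while 58.5% of all 20952 genes tested were called in that comparison (19.8% higher, 38.7% lower). The median log2 fold change of the 23 was 0.48, beside -0.28 over all genes. Against Dmrt1+/+, 11 rose and 5 fell, with 66.6% of all genes called (26.1% higher, 40.5% lower), and the medians were 0.85 and -0.31. A member that is high in only 1 group passes the filter through that group, so these counts describe the 23 and not the family, and both comparisons share the Dmrt1-/- libraries. With Dmrt1+/- replicate 3 left out, 11 rose and 6 fell against Dmrt1+/-, the members gained being Serpina3n and Serpina16, whose level rests on 1 Dmrt1-/- library.

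The direction of several members hung on how the libraries were scaled. When the scaling was taken from the macrophage, endothelial, peritubular myoid and stromal marker genes alone, the median of all genes in Dmrt1-/- against Dmrt1+/- moved to -1.90 and 4 serpins rose while 13 fell; against Dmrt1+/+ it moved to -2.39, with 3 higher and 12 lower. Higher and lower are therefore given relative to the whole transcriptome of each library. Serpinh1, Serpine2, Serpinb6b and Serpinb9 remained higher than in Dmrt1+/- under that scaling, and Serpina5, Serpina3a, Serpina3b, Serpinb2, Serpinb6c and Serpinc1 remained lower.

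**Figure D2:**
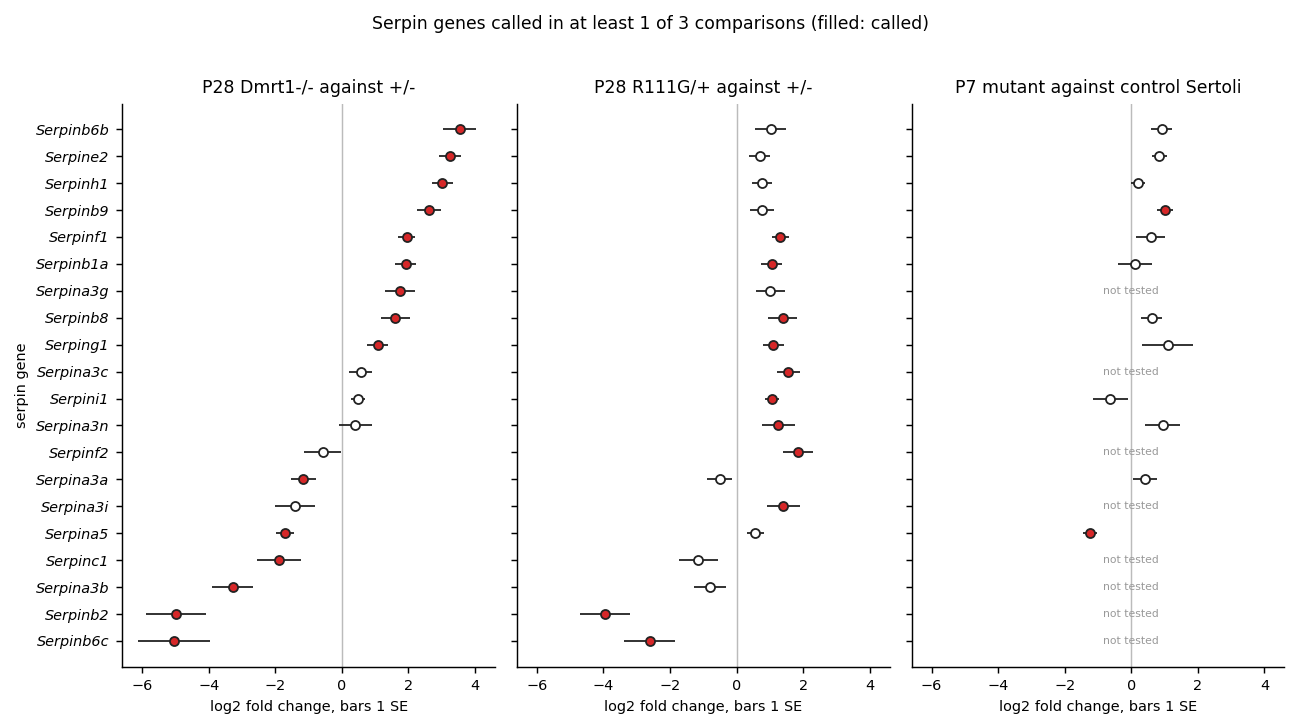
log2 fold change (horizontal axis, bars 1 SE) of the 20 serpin genes called in at least 1 of 3 comparisons, in P28 Dmrt1-/- against Dmrt1+/-, in P28 R111G/+ against Dmrt1+/- and in mutant against control P7 Sertoli cells, with filled points for called genes. The range in Dmrt1-/- runs from -5.05 for Serpinb6c to 3.54 for Serpinb6b, the Dmrt1-/- points of Serping1 and Serpinb8 lie above 0 here and below it when scaled to somatic markers, and in Sertoli cells 2 of the genes shown are called.

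The sequences around the start sites of the 4 members on which the results below turn most are shown first: the pair that rose most clearly in P28 Dmrt1-/- among the secretory-pathway serpins, and the pair that was called in Sertoli cells. Each runs 250 bases before to 50 bases after the RefSeq start on GRCm38.p6, 5′ to 3′ on the gene's own strand, with the bases from the start on in capitals. They are Serpine2 at chr1:79858616-79858915 (minus strand), Serpinh1 at chr7:99353190-99353489 (minus), Serpina5 at chr12:104100863-104101162 (plus) and Serpinb9 at chr13:33004291-33004590 (plus).
Serpine2: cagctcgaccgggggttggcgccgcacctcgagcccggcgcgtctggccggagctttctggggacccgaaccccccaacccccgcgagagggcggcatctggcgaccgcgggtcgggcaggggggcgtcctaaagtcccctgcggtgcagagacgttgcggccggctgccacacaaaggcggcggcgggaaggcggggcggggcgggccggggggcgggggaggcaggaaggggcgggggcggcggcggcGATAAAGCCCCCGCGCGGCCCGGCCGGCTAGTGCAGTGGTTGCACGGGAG
Serpinh1: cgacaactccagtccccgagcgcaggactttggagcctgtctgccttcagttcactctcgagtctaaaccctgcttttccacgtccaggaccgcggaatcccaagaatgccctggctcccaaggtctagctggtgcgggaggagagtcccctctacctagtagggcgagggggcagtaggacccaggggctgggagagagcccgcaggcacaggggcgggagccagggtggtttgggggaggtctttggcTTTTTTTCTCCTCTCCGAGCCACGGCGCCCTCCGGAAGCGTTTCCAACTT
Serpina5: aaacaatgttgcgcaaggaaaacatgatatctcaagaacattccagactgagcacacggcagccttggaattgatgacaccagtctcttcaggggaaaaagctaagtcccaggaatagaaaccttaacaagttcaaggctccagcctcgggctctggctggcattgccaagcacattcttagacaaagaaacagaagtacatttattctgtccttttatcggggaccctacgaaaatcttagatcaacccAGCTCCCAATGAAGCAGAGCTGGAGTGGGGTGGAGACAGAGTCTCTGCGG
Serpinb9: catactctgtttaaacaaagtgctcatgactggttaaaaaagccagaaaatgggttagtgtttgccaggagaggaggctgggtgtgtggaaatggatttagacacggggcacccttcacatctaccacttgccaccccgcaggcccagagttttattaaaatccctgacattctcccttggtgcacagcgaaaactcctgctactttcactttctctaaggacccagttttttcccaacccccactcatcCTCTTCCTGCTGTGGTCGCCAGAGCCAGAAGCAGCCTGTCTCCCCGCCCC

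The stretch at Serpine2 is 77.7% G and C with 41 CpG, and that at Serpinh1 62.3% with 16 CpG. Those at Serpina5 (47.3%, 6 CpG) and Serpinb9 (51%, 5 CpG) are poor in CpG. None of the 4 holds AGGTCA, the core that nuclear receptors such as ESR2 and LRH1 read, TACANTGT, the core of the DMRT1 consensus, or GTAAACA, the forkhead core, on either strand. Promoters were found for 54 of the 64 members, as 63 entries, of which 21 (33.3%) hold AGGTCA, against 16.3% of 32851 mouse promoters of the same length. The entries are not independent. Serpina11 and Serpinb6d each enter with overlapping windows that hold AGGTCA, and the neighbouring, related genes Serpinb9c to Serpinb9h hold it too. The difference in share was not tested, and no enrichment is read from it. TACANTGT is in 1 of the 63 (1.59%), at Serpinb2, against 2.69%, and GTAAACA in 0 of 63 against 3.65%. Of the 13 entries of the most expressed members, only that of Serpinf1 holds AGGTCA. Serpinb6a has more than 1 of these entries. No entry was found for Serping1 or Serpinb1a, so nothing is known of theirs. A match of letters is a description of the window and not a binding site.

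Serpinh1 (chromosome 7, 99345376 to 99353239), the collagen chaperone, gave the highest levels of the family in Dmrt1-/- gonads. At P28 it stood at 86.5, 56.1 and 55.2 CPM in Dmrt1+/+, 63.5, 119 and 101.3 in Dmrt1+/-, 785, 848 and 666 in Dmrt1-/- and 239.6, 125 and 112 in R111G/+. The Dmrt1-/- libraries were all far above the rest, and R111G/+ overlapped Dmrt1+/-. The log2 fold change against Dmrt1+/- was 3.02 ± 0.32, adjusted p = 2.04e-06 (edgeR quasi-likelihood, Benjamini-Hochberg over all genes), and 3.57 ± 0.33 against Dmrt1+/+. R111G/+ was 0.76 ± 0.30 above Dmrt1+/-, under the 2-fold limit, and -2.26 ± 0.31 relative to Dmrt1-/-, which was called. Transcripts for the partners of Serpinh1 were counted too: of 29 genes for procollagens, their modifying enzymes and crosslinkers, 25 rose and 0 fell in Dmrt1-/- against Dmrt1+/-, with a median of 1.80. Among them were Plod2, a collagen lysyl hydroxylase (3.29), Lox, which crosslinks collagen (3.37), and Col6a3 (2.701). Fibroblast and stromal markers rose in the same libraries, 10 of 12 called higher, and their part in these values was not tested.

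Serpine2 (protease nexin-1, chromosome 1, 79794197 to 79861180), which blocks thrombin and the plasminogen activators, was low in the P28 controls and rose in Dmrt1-/-. Its levels were 2.77, 2.12 and 2.56 CPM in Dmrt1+/+, 2.84, 4.04 and 4.54 in Dmrt1+/-, 24.2, 29.9 and 54.5 in Dmrt1-/- and 6.61, 5.54 and 6.17 in R111G/+. Neither Dmrt1-/- nor R111G/+ overlapped any Dmrt1+/+ or Dmrt1+/- library. In Dmrt1-/- the log2 fold change was 3.25 ± 0.32, adjusted p = 9.26e-07, against Dmrt1+/-, and 3.89 ± 0.34 against Dmrt1+/+. R111G/+ did not pass the test against Dmrt1+/- (0.70 ± 0.31, adjusted p = 0.0781), and against Dmrt1-/- its log2 fold change was -2.55 ± 0.30, which was called. Serpini1 (neuroserpin, chromosome 3), an inhibitor of tissue plasminogen activator, had its highest P28 levels in R111G/+ instead, with 14.3, 12.3 and 13.9 CPM in Dmrt1+/+, 14.4, 16.4 and 20.5 in Dmrt1+/-, 29.4, 23.6 and 18.8 in Dmrt1-/- and 35.5, 40.4 and 30.4 in R111G/+. All R111G/+ values lay above all others for this gene, by 1.07 ± 0.21, adjusted p = 0.00109, against Dmrt1+/-. Serpini1 in Dmrt1-/- did not reach a 2-fold change against either control on the scale set by all genes. Scaled to somatic markers, it was called lower, at -1.23 against Dmrt1+/+ and -1.12 against Dmrt1+/-. With library totals alone it was called higher against Dmrt1+/+ (1.16). The list of 28 plasminogen, clotting and cofactor genes held 12 that rose and 6 that fell in Dmrt1-/- against Dmrt1+/-, median 1.15, among them Plau, the urokinase that Serpine2 blocks (2.89), Vtn, the adhesion protein vitronectin (3.54), and Proc, protein C (-6.73).

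Serpina5 (protein C inhibitor, chromosome 12, 104101113 to 104106137), a secreted inhibitor of protein C and of sperm proteases, fell in Dmrt1-/-, while its highest P28 levels were those of R111G/+. Its P28 levels were 170.5, 122 and 128 CPM in Dmrt1+/+, 161, 251 and 305 in Dmrt1+/-, 89.9, 79.6 and 50.1 in Dmrt1-/- and 358, 354 and 334 in R111G/+. Every Dmrt1-/- library was below, and every R111G/+ library above, all Dmrt1+/+ and Dmrt1+/- libraries. As the share of all genes that separate in this way was not counted, nothing is read from these separations. Against Dmrt1+/-, Dmrt1-/- changed by -1.71 ± 0.26, adjusted p = 4.74e-05, and it stayed called in all 13 alternatives, from -3.29 to -1.47. Against Dmrt1+/+ the change of -0.91 ± 0.25, adjusted p = 0.00483, was under 2-fold. R111G/+ did not pass the test against Dmrt1+/- (0.56 ± 0.25, adjusted p = 0.0765), while R111G/+ exceeded Dmrt1-/- by 2.27 ± 0.26, adjusted p = 1.17e-05. Of 39 genes for kallikreins and serine proteases of sperm or Sertoli cells, 4 rose and 24 fell in Dmrt1-/-, with a median of -7.77, including Acr, acrosin, the protease of the sperm acrosome (-7.65), Prss44 (-8.08) and Prss42 (-9.14). Spermatid and spermatocyte markers fell in 18 of 18 and 18 of 18 genes, and their part in the Serpina5 difference was not tested.

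**Figure D3:**
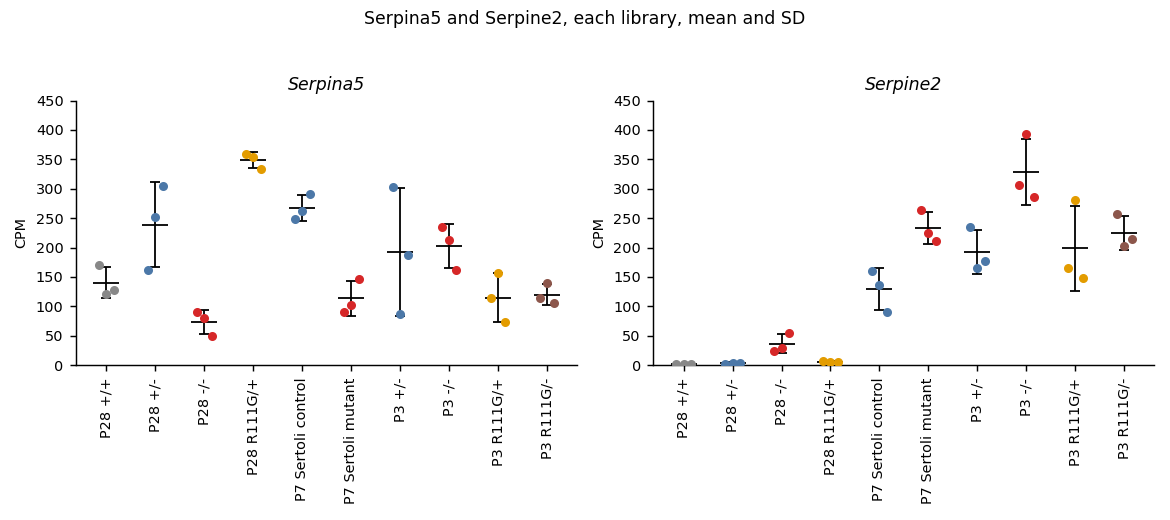
Level in CPM of Serpina5 and Serpine2 in each library (points) with the mean and SD of 3 libraries (bars) for the 10 groups, on linear axes from 0. Serpina5 was lower in P28 Dmrt1-/- and in P7 mutant Sertoli cells than in their controls and overlapped Dmrt1+/- in P3 Dmrt1-/-, and Serpine2 was higher at P3 and P7 than in every P28 group.

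Serping1 (C1 inhibitor, chromosome 2), which blocks the first proteases of complement, was higher in both P28 mutants. The libraries held 81.2, 48.4 and 38.4 CPM in Dmrt1+/+, 53.8, 109.6 and 96.6 in Dmrt1+/-, 168, 177 and 201 in Dmrt1-/- and 259, 147 and 149 in R111G/+. Both mutant groups lay clear of both controls and overlapped each other, on the scale set by all genes. The log2 fold changes against Dmrt1+/- were 1.07 ± 0.32, adjusted p = 0.00763, in Dmrt1-/- and 1.11 ± 0.32, adjusted p = 0.0108, in R111G/+, but scaling to somatic markers turned the former to -0.47. The call in Dmrt1-/- held in 7 of 13 alternatives. It was also lost with DESeq2, with its size factors, without the filter on low counts, and without Dmrt1+/- replicate 1 or Dmrt1-/- replicate 3. That in R111G/+ was lost with scaling to somatic markers and without Dmrt1+/- replicate 1 or R111G/+ replicate 1. Of 17 complement genes, 13 of them tested, 10 rose and 0 fell in each mutant, with medians of 1.41 in Dmrt1-/- and 1.30 in R111G/+. They included Cfi, which restrains complement (3.89 in Dmrt1-/-), and Cfp, properdin, which stabilises the alternative pathway (1.85). Of the macrophage markers, 6 of 15 rose and 1 fell in Dmrt1-/- and 13 rose and 1 fell in R111G/+, and their part here was not tested. Serpinf1 (PEDF, chromosome 11) was at 12.3, 10.6 and 7.54 CPM in Dmrt1+/+, 10.2, 18.5 and 17.1 in Dmrt1+/-, 57.3, 56.2 and 62.4 in Dmrt1-/- and 49.5, 30.3 and 33.2 in R111G/+. Dmrt1-/- was highest, R111G/+ next and the controls lowest, with no overlap between these 3 levels. It changed by 1.94 ± 0.26, adjusted p = 1.69e-05, in Dmrt1-/- and 1.32 ± 0.26, adjusted p = 0.00108, in R111G/+ against Dmrt1+/-, and scaling to somatic markers left 0.39 for the former, no longer called. Endothelial markers, whose vessels PEDF is known to restrain, rose in 12 of 13 genes in Dmrt1-/- and 0 of 13 in R111G/+.

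The intracellular clade B members of the chromosome 13 cluster held some of the largest increases in Dmrt1-/-. Serpinb6b (32965209 to 32979067), a mouse inhibitor of granzyme A, was at 15.6, 3.96 and 3.55 CPM in Dmrt1+/+, 9.17, 13.8 and 16.1 in Dmrt1+/-, 188, 155 and 111.4 in Dmrt1-/- and 41, 22.4 and 15.7 in R111G/+. The lowest Dmrt1-/- library was higher than any other P28 library, and its log2 fold change of 3.54 ± 0.50, adjusted p = 2.81e-05, against Dmrt1+/- was the largest increase of the 23 members. Serpinb9 (33003250 to 33017957), the granzyme B inhibitor that protects cells from their own cytotoxic granules, was at 22, 11.9 and 13.2 CPM in Dmrt1+/+, 9.74, 25.6 and 12.5 in Dmrt1+/-, 105, 111.1 and 76.9 in Dmrt1-/- and 37.4, 23.2 and 19.7 in R111G/+. Its Dmrt1-/- libraries were likewise above every other P28 library, with 2.62 ± 0.37, adjusted p = 2.38e-05, in Dmrt1-/- against Dmrt1+/-. Serpinb1a (32842092 to 32851185), an inhibitor of neutrophil elastase, was at 16.8, 9.9 and 8.67 CPM in Dmrt1+/+, 14.8, 27 and 20.5 in Dmrt1+/-, 91.2, 83 and 60.4 in Dmrt1-/- and 58.2, 40.1 and 29.4 in R111G/+. Here R111G/+ was also above Dmrt1+/- without overlap, by 1.05 ± 0.31, adjusted p = 0.0118, beside 1.91 ± 0.31, adjusted p = 8.98e-05, for Dmrt1-/-. Scaling to somatic markers left 0.34 for Serpinb1a in Dmrt1-/-, no longer called. The Serpinb1a call in R111G/+ held in 9 of 13 alternatives, with values down to 0.30. For Serpinb6b and Serpinb9 the R111G/+ libraries overlapped Dmrt1+/- (1.02 and 0.77, adjusted p = 0.0854 and 0.0846), and both were called lower in R111G/+ than in Dmrt1-/- (-2.51 and -1.85). Serpinb6a (33917918 to 34002794), a broadly expressed inhibitor of cathepsin G and related proteases, had a smaller difference, with 159, 138 and 143 CPM in Dmrt1+/+, 132, 163 and 105 in Dmrt1+/-, 251, 291 and 185 in Dmrt1-/- and 159, 136 and 138 in R111G/+. Its Dmrt1-/- libraries lay above the rest, by 0.86 ± 0.19, adjusted p = 0.0011, against Dmrt1+/-, under the 2-fold limit. Against Dmrt1+/+ the value was 0.76 ± 0.19, and scaling to somatic markers turned that value to -1.34, called lower. Of 20 granule proteases, cathepsins and caspases listed as targets of clade B serpins, 5 rose and 0 fell in Dmrt1-/-, among them Ctsh (4.13), Ctsk (2.60) and Casp8 (1.71). None of these genes encodes a protease named above as the target of a member, and no pairing of inhibitor and protease was tested.

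The Serpina3 genes of chromosome 12, mouse copies of the gene for human antichymotrypsin, did not move together. Serpina3g, an intracellular inhibitor of cathepsins, was at 10.7, 4.67 and 3.41 CPM in Dmrt1+/+, 4.25, 15.7 and 14 in Dmrt1+/-, 37.6, 45.6 and 30.2 in Dmrt1-/- and 27.6, 17 and 23.4 in R111G/+. Its Dmrt1-/- libraries were the highest and R111G/+ next, with 1.74 ± 0.45, adjusted p = 0.00307, and 1.02 ± 0.44, adjusted p = 0.069, against Dmrt1+/-, so only Dmrt1-/- was called. Scaling to somatic markers left 0.21 for Serpina3g in Dmrt1-/-, no longer called. Of its 100-base windows, 4.64% also occur in another gene, chiefly Serpina3h. Serpina3c was highest in R111G/+, with 34.9, 15 and 12.5 CPM in Dmrt1+/+, 21.8, 38.4 and 34.2 in Dmrt1+/-, 53.3, 48.4 and 38 in Dmrt1-/- and 116, 79.1 and 79.8 in R111G/+. All R111G/+ libraries exceeded the others, by 1.56 ± 0.34, adjusted p = 0.00217, against Dmrt1+/-, while Dmrt1-/- overlapped Dmrt1+/- and was called only against Dmrt1+/+ (1.178, or -0.78 when scaled to somatic markers). Serpina3n, a secreted inhibitor of granzyme B and leukocyte elastase that rises in inflammation, varied widely within groups, with 14.9, 7.78 and 6.97 CPM in Dmrt1+/+, 10.7, 22.1 and 50.5 in Dmrt1+/-, 39.3, 27.7 and 43.8 in Dmrt1-/- and 97.8, 35.3 and 65.1 in R111G/+. The Dmrt1+/- libraries overlapped those of each other group. Dmrt1-/- was not called against Dmrt1+/- (0.40). It was called lower when scaled to somatic markers (-1.13) and higher without Dmrt1+/- replicate 3 (1.21). R111G/+ was called against Dmrt1+/- at 1.25 ± 0.49, adjusted p = 0.0453, but held in only 6 of 13 alternatives. It was 2.04 without Dmrt1+/- replicate 3, and not called without Dmrt1+/- replicate 1 or 2 or R111G/+ replicate 1 or 3. Serpina3a, by contrast, was lower in Dmrt1-/-, with 13.3, 6.79 and 4.83 CPM in Dmrt1+/+, 8.6, 22.3 and 16 in Dmrt1+/-, 6.48, 8.5 and 6.07 in Dmrt1-/- and 9.1, 11.1 and 12.2 in R111G/+. It changed by -1.16 ± 0.39, adjusted p = 0.015, against Dmrt1+/-, yet Dmrt1-/- overlapped Dmrt1+/+, and without Dmrt1+/- replicate 2 the call was lost.

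Of the 9 less expressed members tested at P28, 1 rose and 4 fell in Dmrt1-/- against Dmrt1+/-, and these 5 are named because of their calls. Serpinb8, an inhibitor of furin in human cells, was at 1.84, 1.13 and 1.85 CPM in Dmrt1+/+, 2.08, 2.36 and 1.51 in Dmrt1+/-, 5.67, 6.38 and 5.98 in Dmrt1-/- and 9.3, 3.23 and 2.93 in R111G/+. It was higher in both mutants than in Dmrt1+/- (1.60 ± 0.43, adjusted p = 0.0041, and 1.38 ± 0.43, adjusted p = 0.0163), although somatic scaling put Dmrt1-/- at -0.0024 and the R111G/+ call was lost without its replicate 1. Serpinc1 (antithrombin) was at 1.61, 2.26 and 3.27 CPM in Dmrt1+/+, 2.46, 1.91 and 0.623 in Dmrt1+/-, 0.463, 0.319 and 0.513 in Dmrt1-/- and 0.192, 0.702 and 1.23 in R111G/+, and Serpina3b at 2.65, 1.41 and 1.71 CPM in Dmrt1+/+, 1.32, 3.7 and 2.31 in Dmrt1+/-, 0.463, 0.106 and 0.171 in Dmrt1-/- and 0.863, 1.47 and 1.77 in R111G/+. Both had their lowest mean in Dmrt1-/-, although R111G/+ replicate 1 of Serpinc1 was below every Dmrt1-/- library. Neither gene overlapped between Dmrt1-/- and Dmrt1+/-, with log2 fold changes of -1.89 ± 0.65 for Serpinc1 and -3.29 ± 0.62 for Serpina3b. The former was lost without Dmrt1+/- replicate 1 or Dmrt1-/- replicate 2. Serpinb2 (PAI-2) and Serpinb6c nearly vanished: 1 read was assigned to each in the 3 Dmrt1-/- libraries together, against 44 and 46 reads in Dmrt1+/-. The ratios of Dmrt1-/- to Dmrt1+/- were 0.0235 (95% counting interval 0.000581 to 0.138) for Serpinb2 and 0.0225 (0.000557 to 0.132) for Serpinb6c. Both also fell in R111G/+, with 3 and 9 reads. The genes Serpinf2 (antiplasmin) and Serpina3i were called higher in R111G/+ than in Dmrt1+/-, at 1.84 ± 0.44, adjusted p = 0.0039, and 1.40 ± 0.50, adjusted p = 0.0306. Their R111G/+ libraries held 1.53, 1.12 and 1.23 CPM of Serpinf2 against 0.473, 0.224 and 0.356 in Dmrt1+/-, and 4.03, 1.54 and 2.31 of Serpina3i against 0.662, 1.46 and 0.89.

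A pair of members that failed the filter at P28 were high in a single library, Dmrt1-/- replicate 1. Serpina16 was at 23.2, 0.106 and 1.54 CPM in the 3 Dmrt1-/- libraries and at most 0.284 CPM in the other 27, and Serpina1f was at 15.5, 0 and 0.855 and at most 0.946. Both are known as genes of the epididymis, the duct attached to the testis. Of 17 other genes in a list of epididymal and seminal vesicle markers, Crisp1 was at 209.5, 0.213 and 13 CPM in the same 3 libraries, Rnase9 at 14.4, 0 and 1.03, and Adam7 at 12.6, 0 and 0.513. Together the 17 summed to 239, 2.34 and 17.1 CPM, beside 0.759 to 10.9 in every other library. Neither gene passed the filter with all libraries in, and their group means rest on 1 library. Serpina16 passed it and was called against Dmrt1+/- in some alternatives that keep replicate 1, at 5.66 without Dmrt1+/- replicate 3 and 6.07 without the filter, and Serpina1f was called without the filter (3.28). Leaving that library out kept the count of called serpins at 9 higher and 6 lower against Dmrt1+/-. Serpinb1b, also untested there, had 0 reads in Dmrt1+/- and 22 in Dmrt1-/-, at least 7.58-fold higher when the floor is 3 reads over the group.

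**Figure D4:**
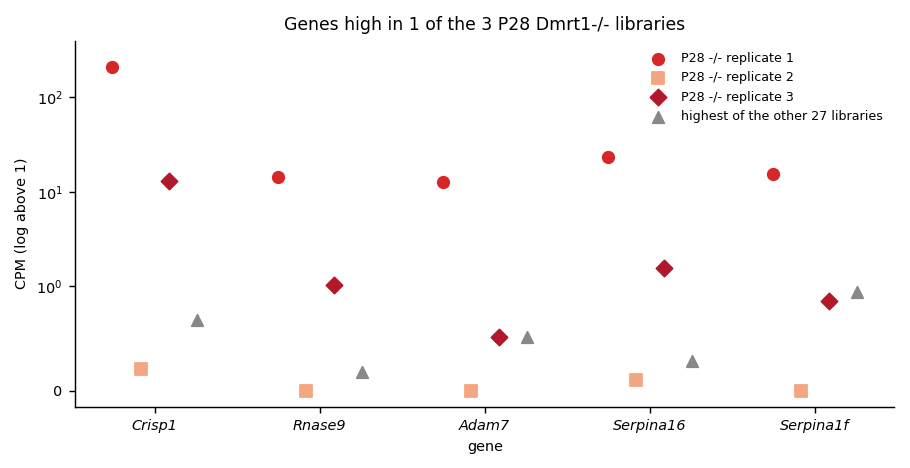
Level in CPM (logarithmic above 1, linear below) of 3 epididymal genes and of Serpina16 and Serpina1f in each P28 Dmrt1-/- library and in the highest of the other 27 libraries. In replicate 1 all 5 genes lie between 12.6 and 209.5 CPM, and in replicate 2 all are below 1.

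Between the controls, Dmrt1+/- and Dmrt1+/+, 0 of the 23 members were called by edgeR and 0 by DESeq2, and 5 had an unadjusted p below 0.05. Over all genes 0% were called, with 3769 at an unadjusted p below 0.05. The smallest adjusted p of a serpin was that of Serpina5 (0.80 ± 0.25, adjusted p = 0.192), and the median of the 23 was 0.61, beside -0.05 over all genes. Serpine2 and Serpini1, neither called, were above Dmrt1+/+ in all 3 Dmrt1+/- libraries. How many of all genes separate in this way was not counted, so nothing is read from it.

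In R111G/+ gonads at P28, 9 of the 23 members rose and 2 fell against Dmrt1+/-, where 34.8% of all genes were called (6.72% higher, 28.1% lower). The medians were 1.02 for the members and -0.17 for all genes. Those called higher were Serpinb1a, Serpini1, Serping1, Serpina3n, Serpinf1, Serpinb8, Serpina3i, Serpina3c and Serpinf2, and those lower were Serpinb2 and Serpinb6c. Scaled to somatic markers, 0 rose and 3 fell, the median of all genes being -0.88. The count was 5 without Dmrt1+/- replicate 1 and 7 without R111G/+ replicate 1. Without Dmrt1+/- replicate 1 the calls of Serpini1, Serpinb1a, Serpina3i and Serpinb6c were among those lost, as were those of Serpinb1a and Serpina3i without R111G/+ replicate 1, of Serpina3i without Dmrt1+/- replicate 3 and of Serpini1 without R111G/+ replicate 2. Set directly against Dmrt1-/-, 5 members were higher in R111G/+ and 4 lower, with 37.7% of all genes called (27.6% higher, 10.1% lower). The lower ones were Serpine2, Serpinb6b, Serpinh1 and Serpinb9, and the higher ones Serpina5, Serpinf2, Serpina3b, Serpina3i and Serpina6. In that last gene, corticosteroid-binding globulin, R111G/+ overlapped Dmrt1-/- despite the call. The 3 P28 comparisons of R111G/+, Dmrt1-/- and Dmrt1+/- share libraries and are not independent of each other.

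Among protease inhibitors of other families, 7 of 59 rose and 14 fell in Dmrt1-/- against Dmrt1+/-, with a median of -0.47. The 3 with the smallest adjusted p all fell, Wfdc15a (-9.87), Spink2, a sperm acrosome inhibitor (-8.79), and Wfdc3 (-4.65). Of 13 angiotensin and steroid carrier genes, 6 rose and 4 fell, including Mas1, a receptor for angiotensin peptides (-8.43), and Ace, which has a sperm form (-3.12). In R111G/+ the same lists gave 6 and 6 of 59, and 3 and 3 of 13. The R111G/+ counts for the other lists were 3 higher and 6 lower of 28 clotting genes, 2 and 19 of 39 kallikreins and sperm proteases, 4 and 0 of 20 clade B targets, and 6 and 0 of 29 procollagen partners. All 7 lists, like the members, stand beside 19.8% higher and 38.7% lower over all genes tested in Dmrt1-/-, and 6.72% and 28.1% in R111G/+. The list counts are out of all listed genes, which need not all have passed the filter on low counts. Their shares therefore cannot be set directly against those of the genes tested.

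In the Sertoli cell preparations at P7, Serpina5 fell and Serpinb9 rose. They were the only 2, 1 in each direction, of 14 members tested that were called, beside 4.56% of 14013 genes (2.56% higher, 2% lower). Serpina5 was at 249, 262 and 291 CPM in control and 90.9, 103 and 146 in mutant Sertoli cells, without overlap. The log2 fold change was -1.24 ± 0.21, adjusted p = 0.0129, and it was lost in 1 of 11 alternatives, without mutant replicate 2. Serpinb9 was at 12.4, 15.6 and 8.84 CPM in control and 26, 26.7 and 21.8 in mutant Sertoli cells, also without overlap, and changed by 1.02 ± 0.25, adjusted p = 0.0495. That call sat at the threshold and held in 4 of 11 alternatives, with values from 0.81 to 1.21. It was lost without any one of the mutant libraries and without control replicate 1 or 3. The number of serpins called ran from 0 without mutant replicate 2 to 4 without control replicate 2.

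Serpine2, at 161, 137 and 89.9 CPM in control and 263, 224 and 211 in mutant Sertoli cells, was also separated, but at 0.85 ± 0.21, adjusted p = 0.0557, was not called. Serpinb6a was at 512, 615 and 355 CPM in control and 666, 793 and 663 in mutant Sertoli cells, and Serpinb6b at 18.9, 30.7 and 12.2 CPM in control and 42.6, 41 and 32 in mutant Sertoli cells. Neither overlapped its control, with 0.52 ± 0.22, adjusted p = 0.217, and 0.91 ± 0.31, adjusted p = 0.13, and neither was called. Serpinb8, at 3.26, 3.47 and 3.32 CPM in control and 4.59, 4.74 and 6.09 in mutant Sertoli cells, did not overlap either and was not called (0.61 ± 0.32, adjusted p = 0.31). How many of all genes had groups that do not overlap was not counted, so nothing is read from these separations. Serpinh1 was at 235, 271 and 149.6 CPM in control and 279, 246 and 234 in mutant Sertoli cells and Serpinf1 at 27.2, 26 and 11.1 CPM in control and 52.9, 18.2 and 25.4 in mutant Sertoli cells. Both overlapped, as did Serpini1, with 10.8, 4.68 and 15.9 CPM in control and 6.56, 10.6 and 3.34 in mutant Sertoli cells. The remaining members were low in these libraries and overlapped wherever tested. Serping1 was at 1.17, 9.02 and 1.52 CPM in control and 4.81, 13.1 and 6.49 in mutant Sertoli cells, Serpinb1a at 1.86, 5.9 and 2.07 CPM in control and 2.95, 4.36 and 3.15 in mutant Sertoli cells and Serpina3n at 1.2818, 2.43 and 0.829 CPM in control and 1.64, 4.17 and 2.95 in mutant Sertoli cells. Serpina3a was at 11, 10.4 and 4.56 CPM in control and 11.4, 10.2 and 13 in mutant Sertoli cells. Serpina3c, at 0.233, 0.52 and 0 CPM in control and 0.438, 1.52 and 1.1795 in mutant Sertoli cells, and Serpina3g, at 0.117, 0.347 and 0 CPM in control and 0.109, 0.19 and 0 in mutant Sertoli cells, did not pass the filter. Macrophage markers summed to 10.4 to 16.7 CPM over the 6 libraries, but Leydig markers were at 485 to 636 CPM in control and 707 to 879 in mutant cells, endothelial markers at 17.1 to 22.9 and 33.1 to 61.8, and Sertoli markers at 9002 to 10608 and 6860 to 9062. Their part in the serpin values was not tested. Of the lists, Plau rose here too (2.16, adjusted p = 0.0275, 1 of 28 clotting genes), 2 of 59 other inhibitors rose and 5 fell, and 0 of 29 procollagen partners and 0 of 17 complement genes were called.

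At P3 no serpin was called. The share of all genes whose groups do not overlap was not counted at P3 either. Nothing is therefore read from the separations given in this paragraph and the next. For 17 members tested by edgeR, 0 were called in Dmrt1-/- against Dmrt1+/-, with 4 at an unadjusted p below 0.05 and 0.511% of 15837 genes called (0.202% higher, 0.309% lower). For R111G/+ against Dmrt1+/- these were 0 and 1 of the 17, beside 0.133% of genes (0.0821% higher, 0.0505% lower). R111G/- gave 0 and 1 against Dmrt1+/-, beside 0.196% (0.0379% higher, 0.158% lower), and 0 and 2 against Dmrt1-/-, beside 0.177% (0.12% higher, 0.0568% lower). DESeq2 also called 0 in each. In Dmrt1-/- the smallest adjusted p was 0.176, for Serpinf1, which was at 86, 71.3 and 64.3 CPM in Dmrt1+/-, 118, 121 and 92.1 in Dmrt1-/-, 59.4, 80.9 and 58.4 in R111G/+ and 121, 86.8 and 105 in R111G/-. Its Dmrt1-/- and R111G/- libraries lay above all Dmrt1+/- libraries, with 0.58 ± 0.16 and 0.51 ± 0.16. Serpine2 was at 235, 165 and 177 CPM in Dmrt1+/-, 307, 393 and 286 in Dmrt1-/-, 165, 282 and 148 in R111G/+ and 257, 203 and 214 in R111G/-. Dmrt1-/- was above Dmrt1+/- and above R111G/- without overlap, by 0.78 ± 0.22, adjusted p = 0.181, in the former. Serpina3a, at 20.4, 11 and 10.2 CPM in Dmrt1+/-, 39, 30.8 and 23.5 in Dmrt1-/-, 14.8, 12.3 and 4.15 in R111G/+ and 14.7, 18 and 16 in R111G/-, was highest in Dmrt1-/-, with 1.17 ± 0.36, adjusted p = 0.232, against Dmrt1+/-. Serpinb6b, at 29.3, 15 and 14.6 CPM in Dmrt1+/-, 35.4, 41.3 and 23.8 in Dmrt1-/-, 16.9, 17 and 15.3 in R111G/+ and 28.8, 24.6 and 30.1 in R111G/-, overlapped between Dmrt1-/- and Dmrt1+/- only through Dmrt1+/- replicate 1. Without that replicate it was called, at 1.16 (adjusted p = 0.0240).

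Serpina5 was not separated between Dmrt1-/- and Dmrt1+/- at P3. It was at 303, 86.5 and 187 CPM in Dmrt1+/-, 234, 213 and 162 in Dmrt1-/-, 114, 157 and 74.1 in R111G/+ and 115, 139.9 and 105 in R111G/-. The Dmrt1+/- libraries alone covered nearly the whole range, and the difference in Dmrt1-/- was 0.08 ± 0.35, adjusted p = 0.996. R111G/- lay below Dmrt1-/- without overlap, at -0.75 ± 0.35, adjusted p = 0.666, not called. Serpinh1 was at 942, 868 and 738 CPM in Dmrt1+/-, 864, 971 and 737 in Dmrt1-/-, 722, 923 and 796 in R111G/+ and 1164, 827 and 994 in R111G/-, high in all 4 genotypes. Serpinb6a was at 518, 355 and 333 CPM in Dmrt1+/-, 471, 528 and 382 in Dmrt1-/-, 407, 493 and 328 in R111G/+ and 583, 495 and 467 in R111G/-, and Serping1 at 89.6, 113 and 80.4 CPM in Dmrt1+/-, 67.5, 112 and 72.9 in Dmrt1-/-, 104, 111.2 and 98.5 in R111G/+ and 117, 56 and 124 in R111G/-. Neither separated any pair of groups. Serpini1 was at 21.6, 12.7 and 12.7 CPM in Dmrt1+/-, 22.9, 14.7 and 15.2 in Dmrt1-/-, 23, 16.8 and 19.4 in R111G/+ and 21, 15.2 and 16.8 in R111G/-, Serpinb9 at 39.6, 27.3 and 20.4 CPM in Dmrt1+/-, 40.9, 41.2 and 25.9 in Dmrt1-/-, 25.7, 32 and 23.2 in R111G/+ and 37.4, 33.8 and 36.4 in R111G/- and Serpinb1a at 46.9, 51.7 and 37.7 CPM in Dmrt1+/-, 44.5, 41.3 and 33.9 in Dmrt1-/-, 34.9, 46.3 and 46.2 in R111G/+ and 58.6, 37.5 and 60.9 in R111G/-. These overlapped in each of the 4 comparisons tested, although Serpinb9 was lower in all R111G/+ than in all R111G/- libraries, a pair that was not tested. Serpina3c was at 5.71, 4.4 and 4.61 CPM in Dmrt1+/-, 5.87, 6.24 and 6.31 in Dmrt1-/-, 5.04, 5.74 and 3.5 in R111G/+ and 8.64, 5.21 and 6.98 in R111G/-, and Serpina3g at 2.55, 2.07 and 2.24 CPM in Dmrt1+/-, 3.52, 4.24 and 2.03 in Dmrt1-/-, 1.57, 2.87 and 1.2 in R111G/+ and 2.59, 1.7 and 3.62 in R111G/-. For Serpina3c the Dmrt1-/- libraries were narrowly above Dmrt1+/-, with 0.33, not called. Serpina3n was at 0, 1.94 and 2.9 CPM in Dmrt1+/-, 0.117, 0 and 2.35 in Dmrt1-/-, 2.83, 3.19 and 0 in R111G/+ and 0, 0 and 2.97 in R111G/-. In 6 of the 12 libraries it was at 0 or close to it and in the other 6 above 1.9, and this split did not follow genotype.

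From P3 to P28 some serpins of Dmrt1+/- gonads fell and others rose. In all, 7 of 22 members tested were higher at P28 and 6 lower, beside 54.7% of 21696 genes called (35.7% higher, 18.9% lower). The lower ones were led by Serpine2 (-5.66 ± 0.32, adjusted p = 3.84e-14), Serpinh1 (-3.17), Serpinf1 (-2.28), Serpinb6a (-1.59) and Serpinb1a (-1.13), and Serpinb1b had 0 reads at P28 against 42 at P3, at least 18.3-fold lower. Higher at P28 were Serpinc1 (1.67) and 5 Serpina3 genes, Serpina3b (2.23), Serpina3g (2.29), Serpina3c (2.67), Serpina3n (4.12) and Serpina3i, with 30 reads against 1. Serpinb6c, with 46 reads against 0, was at least 11.8-fold higher. In Dmrt1-/-, 8 were higher and 4 lower, with 23% of all genes called (10.9% higher, 12.1% lower). Serpine2 fell there too, by 3.18 on the log2 scale, and so did Serpina3a (-2.15), Serpina3b (-1.97) and Serpina5 (-1.47). Serpinh1 did not fall, at -0.16 ± 0.25, adjusted p = 0.674. The rise of Serpina3c (2.92), Serpina3g (3.54) and Serpina3n (5.39) was shared with Dmrt1+/-, and Serpinb6b (2.18), Serpinb9 (1.44), Serpinb8 (1.29) and Serping1 (1.11) also rose, with Serpina3i at 11 reads against 0. Several of these age calls depended on 1 library. In Dmrt1+/- the groups of Serpinc1 overlapped, and its call held in 6 of 11 alternatives, being lost without replicate 1 or 2 of either age. In Dmrt1-/-, Serpina3b held in 7 of 11 (lost without P28 replicate 2 or 3 or P3 replicate 1 or 2) and Serping1 in 8 of 12 (lost without P28 replicate 2 or 3 or P3 replicate 1 or 3). Serpinb1a in Dmrt1+/- held in 9 of 12, and was lost with DESeq2, with its size factors and with the replicate block. The 18 spermatid markers summed to 59.6 to 78.6 CPM in P3 Dmrt1+/-, against 6011 to 24437 at P28, and their part in these values was not tested.

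Whether the effect of losing Dmrt1 differed between ages was tested directly, as the difference of Dmrt1-/- against Dmrt1+/- at P28 and at P3, in 1 fit of all 30 libraries. It differed for 11 of 22 members at an adjusted p under 0.05, with 7 positive and 4 negative, beside 50.1% of all genes (23.9% positive, 26.2% negative). The positive differences were led by Serpinh1 (3.01 ± 0.37), Serpinb6b (2.77 ± 0.57), Serpine2 (2.48 ± 0.39) and Serpinb9 (2.32 ± 0.43), and the negative ones included Serpina5 (-1.79 ± 0.44) and Serpina3a (-2.32 ± 0.56). Against the P7 Sertoli preparations, 8 members differed, 6 positive and 2 negative, beside 48.5% of genes (21.3% and 27.2%), but age, whole gonad against enriched cells, and Dmrt1+/- against f/+ controls cannot be told apart there. Serpina5, which fell at both P7 and P28, was not among them, at -0.47 ± 0.44, adjusted p = 0.415. For R111G/+ against Dmrt1+/- at P28 and at P3, 4 differed, 4 positive and 0 negative, beside 19.2% (7.43% and 11.8%), among them Serpina5 (1.29 ± 0.44) and Serpina3c (1.59 ± 0.47). The 3 differences share the P28 Dmrt1+/- libraries.

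Most of the family lies in clusters of neighbouring genes. The clade A cluster of chromosome 12 (103614786 to 104414329, GRCm38) holds 24 members, of which 11 reached 1 CPM in some group and, of 8 tested in P28 Dmrt1-/- against Dmrt1+/-, 1 rose and 3 fell. Of the 16 members of the clade B cluster on chromosome 13 (32842092 to 34002794), 6 reached 1 CPM, 3 of 5 tested rose and 1 fell. The clade B cluster of chromosome 1 (106861173 to 107610484) has 12 members, 2 at 1 CPM, with 1 higher and 1 lower. The 12 members elsewhere included 8 at 1 CPM, and 4 of 8 tested rose and 1 fell. In neither of the larger clusters did the tested members share a direction. A list of 4291 chromatin interactions from mutant P7 Sertoli cells (Hi-C, 10 kb anchors) held 9 with an anchor within 10 kb of a serpin, at 6 members (9.38% of 64), while 26.9% of 21897 protein-coding genes had one. They were Serpine2, Serpinb3b, Serpina3n, Serpinb1c, Serpinb1b and Serpinb9. On chromosome 13 the anchor at Serpinb9 (33000001 to 33010000) and those at Serpinb1b and Serpinb1c reached a common anchor at 33760001 to 33770000, 690 to 860 kb away. No control map was used here, so nothing can be said about a change in these contacts.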

How the data were processed

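Serpin genes were taken by name from a table of whole-number counts per gene for 30 mRNA-seq libraries. Per the labels and methods, the authors trimmed stranded polyA reads with Trim Galore 0.6.0 and cutadapt 1.18, aligned them to GRCm38 with STAR 2.7.2a, and deposited the counts without normalization. Counts were fitted in R 4.3.3 with edgeR 4.0.16 (quasi-likelihood F test, TMM factors, filterByExpr filter), libraries of each age together, and all 30 together for age contrasts and differences of effects. Calls needed an adjusted p (Benjamini-Hochberg, all genes tested) under 0.05 and more than a 2-fold change, and for differences of effects the adjusted p alone. Values after ± are SE, each group has 3 libraries, and precision follows totals of 5043838 to 12792811. DESeq2 1.42.0, other scalings, no filter, a replicate block and left-out libraries were the alternatives. The members and gene lists were chosen with earlier results of these data known. Members that reached 10 CPM in a group, or were called at P7 or P3, are given library by library, others by range or because they were called. Intervals on read ratios are at 95% and cover counting error only. The fitting was tested on simulated data. Positions come from GENCODE for GRCm38, found for 64 of 64 members, and promoters from RefSeq. The authors mapped Hi-C reads with HiC-Pro and called interactions with cooltools, and the deposited list gave anchors only. ChIP-seq samples were not used here. Some results are not reported here.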

Additional observations from a re-analysis of the deposited data

Results flagged for a closer look

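The results given here were picked out because the effect of a Dmrt1 genotype differed between ages or preparations when the difference itself was tested (edgeR, 1 fit of all 30 libraries, adjusted p under 0.05). They share the P28 Dmrt1+/- libraries, and no explanation was weighed. The log2 difference of Dmrt1-/- against Dmrt1+/- between P28 and P3 was 2.48 for Serpine2, 3.01 for Serpinh1, 1.37 for Serpinf1, 2.10 for Serpinb1a, 2.77 for Serpinb6b and 2.32 for Serpinb9. It was -1.79 for Serpina5, -2.32 for Serpina3a, -4.20 for Serpina3b and -3.05 for Serpinc1. Serpinb1b gave 5.87, a fitted value that depends on the prior count because no read was assigned to it in P28 Dmrt1+/-.

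Between P28 gonads and the P7 Sertoli cell preparations, the log2 difference of mutant against control was 2.40 for Serpine2, 2.81 for Serpinh1, 1.33 for Serpinf1, 1.78 for Serpinb1a, 2.62 for Serpinb6b and 1.60 for Serpinb9, and -1.57 for Serpina3a and -4.18 for Serpina3b. That of Serpina3a held in 12 of 18 alternatives, and was lost without Dmrt1+/- replicate 2 or 3, Dmrt1-/- replicate 1 or 3, mutant Sertoli replicate 3 or control replicate 3.

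For R111G/+ against Dmrt1+/- between P28 and P3, the log2 difference was 1.46 for Serpinf1, 1.29 for Serpina5, 1.59 for Serpina3c and 5.39 for Serpinb1b, the last again resting on 0 reads in P28 Dmrt1+/-. That of Serpina5 held in 11 of 18 alternatives.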

How the results depend on the processing

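Of the called results for single members, 63 kept their call under every alternative run, 34 lost it under 1 or more and 6 reversed under 1, some of these counted in both. The 6 reversals all came with scaling to the somatic marker genes: against Dmrt1+/+ Serpinb8 was at -0.14, Serping1 at -0.27, Serpina3c at -0.78 and Serpina3n at -0.0505 in P28 Dmrt1-/-, and against Dmrt1+/- Serpinb8 was at -0.0024 and Serping1 at -0.47. That scaling left 3 serpins called in R111G/+ against Dmrt1+/- and 14 against Dmrt1-/-. Without the filter on low counts, which lets in genes with few reads, the counts were 2 in Dmrt1+/- against Dmrt1+/+, 17 in R111G/+ against Dmrt1+/-, 15 in R111G/+ against Dmrt1-/-, 1 in P3 Dmrt1-/-, 21 in Dmrt1+/- between the ages and 8 for the R111G/+ difference between ages. In P7 Sertoli cells 1 serpin was called with DESeq2 size factors and 1 with library totals alone, and library totals gave 8 for the R111G/+ difference. The cause of these changes was not tested. Leaving out 1 library at a time gave 5 to 12 in R111G/+ against Dmrt1+/- (5 without Dmrt1+/- replicate 1, 7 without R111G/+ replicate 1), 0 to 4 at P7, 0 to 1 in P3 Dmrt1-/- and 2 to 7 for the R111G/+ difference.

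Replicate numbers are shared between groups, but residuals of same-numbered libraries correlated at -0.394 to 0.355 at P28, with 3 of 18 pairs over 0.1, and at -0.287 to 0.241 at P3 with 3 of 18. At P7 they correlated at -0.037 to 0.505, with 2 of 3 over 0.1. Not every pair is over 0.1 at any age, and the numbers were not taken as pairing the samples. With the replicate block, 15 serpins were called in P28 Dmrt1-/- against Dmrt1+/-, 16 against Dmrt1+/+, 8 in R111G/+ against Dmrt1+/-, 9 against Dmrt1-/-, 0 in Dmrt1+/- against Dmrt1+/+, 2 at P7 and 0 in each P3 comparison. Depth limits the members with few reads, most of which were not tested.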
